A study of Bos taurus with 15 samples.

Results

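The genes described here are 8 genes of cholesterol synthesis and its control: HMGCS1, IDI1, FDFT1, SQLE, LSS, SC5D, DHCR7 and INSIG1. They were given as a pathway group and were matched by gene symbol. Each symbol had 1 entry among the 38001 bovine genes of the expression table, and all 8 were among the 11834 genes with enough counts to be tested. The group carries the name cholesterol synthesis and uptake, but it holds 7 enzymes of synthesis and 1 sterol-sensing protein and no lipoprotein receptor. Genes of uptake are therefore given separately below.

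The cells were bovine meniscal fibrochondrocytes, the collagen-making cells of the knee meniscus, sampled at day 28 of culture as engineered tissue. There were 15 libraries, 3 in each of 5 groups: tissue made with no mold, and the middle region and the post region of tissue from an unanchored mold and from an anchored mold. Culture was the same for all 5 groups. Growth medium holding 10% fetal bovine serum was used for 3 days, and chondrogenic medium for the next 25 days, with 50 µg/ml ascorbic acid, dexamethasone and 10 ng/ml TGF-β3. No group had a genetic change or a drug that the others lacked. The labels do not say whether the 3 libraries of a group came from separate tissues, and tissue regions were cut into pieces before RNA was extracted. The p-values below therefore measure only how far these libraries scatter, and that scatter may be technical.

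Cells make cholesterol from acetyl-CoA through the mevalonate pathway, then squalene, lanosterol and a series of sterol intermediates. When sterol in the endoplasmic reticulum is low, the escort protein SCAP carries the transcription factor SREBP2 to the Golgi, where it is cut and released to switch on genes of synthesis and of lipoprotein uptake. INSIG proteins hold SCAP back when sterol is high. Cultured cells given serum can also take up cholesterol from lipoproteins.

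Library totals ran from 2060781 to 7415701 counts. The lowest 3 were no mold replicate 1, no mold replicate 3 and anchored middle replicate 2. In a principal component analysis of all tested genes, the first component (27% of the variance) put the 3 no mold libraries at the low end, at -38.8, -17.8 and -38.8. On the second component (15.5%) anchored middle replicate 2 stood apart at 37.7, while the other 14 libraries lay between -18.4 and 11.1. All 9 fibrochondrocyte markers were detected, and their summed level was 20900 to 31100 CPM (counts scaled to a common library total) in no mold tissue. In molded tissue the sum was 22900 to 36200 in the middle regions and 16900 to 24900 in the post regions. In the molded mean, 5 of these 9 markers fell, 1 rose and 3 did not pass, with a median of -0.60 on the log2 scale. Over all tested genes 7.91% fell and 8.04% rose. The cartilage collagen gene COL2A1 fell by 3.24 (adjusted p = 1.59e-08) and the cartilage transcription factor gene SOX9 by 0.79 (5.86e-07), and the 1 that rose was the proteoglycan gene DCN (0.85, 8.34e-07). The regions differed: in each post group 5 markers fell and 1 rose against no mold tissue (medians -0.79 in unanchored and -0.84 in anchored tissue). In each middle group 2 fell and 2 rose (medians -0.07 and 0.29 in the same order). Values below are CPM after TMM scaling, which corrects for a few abundant genes taking a share of a library. The library method reads transcript 3′ ends, values are not divided by length, and levels of different genes are not compared.

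All 8 genes were expressed in every library, with 66 to 5317 counts per gene and library. The highest library was 1.21 times the lowest for HMGCS1 and 1.92 times for SC5D, with the other genes between. The median of these ratios was 1.69 over the 8 genes, beside 1.53 over the 3674 tested genes whose mean reached that of the lowest of the 8 (37.6 CPM). Anchored middle replicate 2 was the lowest of the 15 libraries for 6 of the 8 genes: HMGCS1, SQLE, IDI1, FDFT1, INSIG1 and LSS. That library also stood apart over all tested genes, and for what share of them it was the lowest was not counted.

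**Figure D1:**
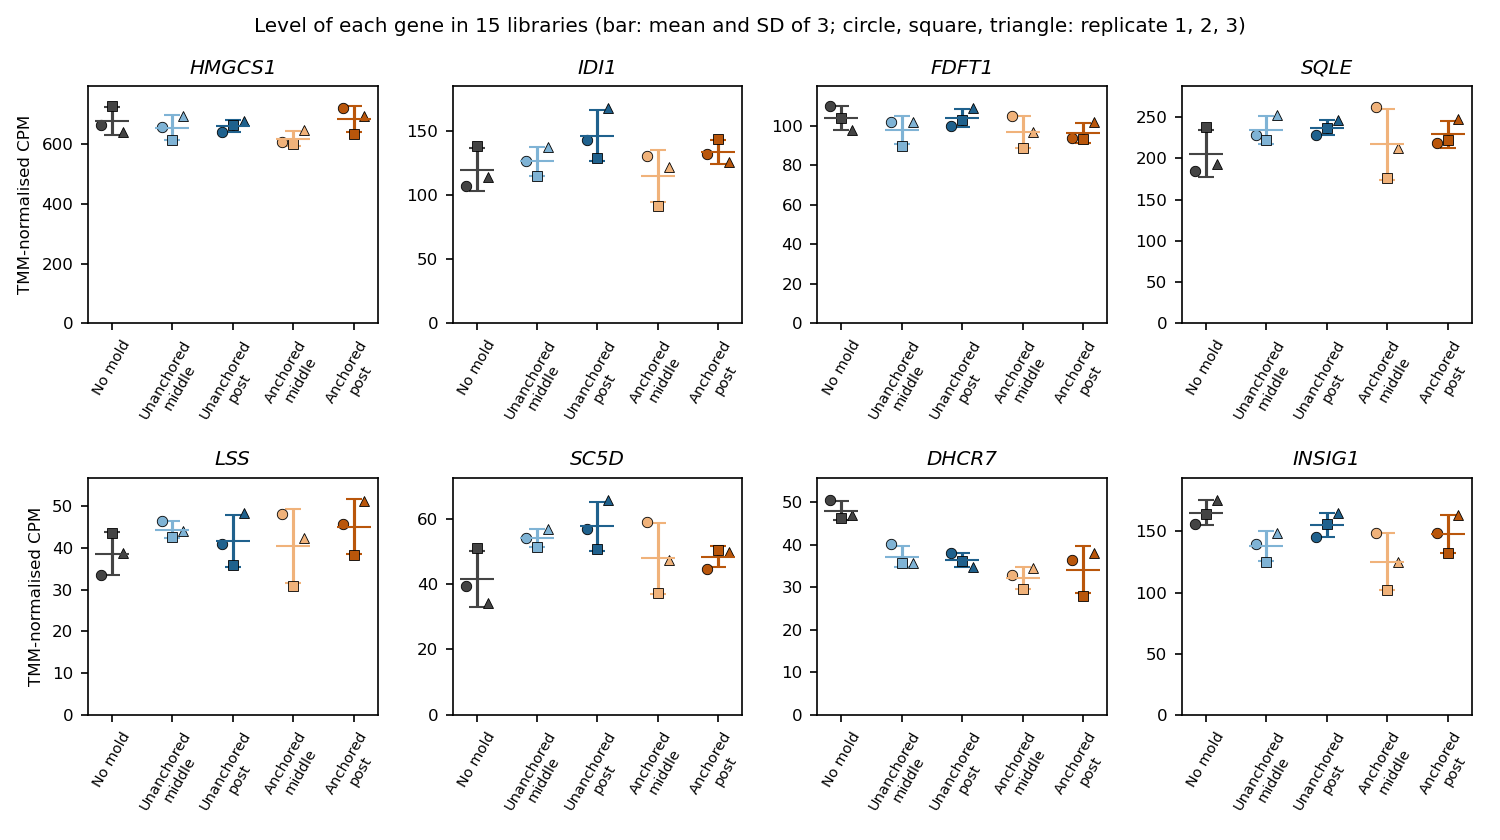
TMM-normalised CPM of each of the 8 genes (vertical axis, starting at 0) in the 5 groups (horizontal axis). Points are single libraries, the horizontal line is the group mean and the bar 1 SD of 3 libraries; only DHCR7 has its 3 no mold libraries above all 12 molded libraries.

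HMGCS1, which joins acetyl-CoA to acetoacetyl-CoA to make HMG-CoA at the entry of the mevalonate pathway, varied least. Its level was lowest in anchored middle, at 619 ± 24.5 CPM, followed by 656 ± 41.3 in unanchored middle and 661 ± 18.8 in unanchored post (SD, n = 3). No mold tissue had 678 ± 46.7 CPM and anchored post 685 ± 44.9 (SD, n = 3). Neighbours in this order, from anchored middle at the bottom to anchored post at the top, all overlapped. About 24.5% of its counts lay in values shared between genes, so its level carries some uncertainty from read assignment.

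IDI1, which converts isopentenyl diphosphate to its isomer so that isoprenoid chains can be built, was 107, 139 and 114 CPM in the no mold libraries. It read 127, 115 and 138 in unanchored middle and 143, 129 and 168 in unanchored post. In anchored middle it read 131, 92 and 122, and in anchored post 132, 144 and 126. The group means ran from 115 ± 20.4 in anchored middle to 147 ± 19.5 in unanchored post (SD, n = 3), and each group overlapped its neighbour.

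FDFT1 encodes squalene synthase, the enzyme that commits farnesyl diphosphate to sterols. Its group means lay between 96.4 ± 5.04 CPM in anchored post and 104 ± 6.32 in no mold tissue (SD, n = 3), with the same mean of 104 in unanchored post. SQLE encodes squalene epoxidase, a control point of the sterol branch. It was lowest on average in no mold tissue, with libraries at 185, 238 and 193 CPM, and highest in unanchored post, at 228, 237 and 246. Those ranges overlapped, since no mold replicate 2 lay inside the unanchored post range. LSS, which closes the ring of oxidosqualene to give lanosterol, had group means from 38.6 ± 5.12 CPM in no mold tissue to 45.1 ± 6.59 in anchored post (SD, n = 3), and all neighbouring groups overlapped.

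SC5D and DHCR7 act next to each other near the end of the pathway. SC5D adds the double bond that turns lathosterol into dehydrocholesterol, and DHCR7 reduces dehydrocholesterol to cholesterol. SC5D read 39.5, 51 and 34.2 CPM in no mold tissue, 54.3, 51.4 and 57 in unanchored middle and 56.8, 50.7 and 65.7 in unanchored post. In anchored middle it read 59, 37.4 and 47.4, and in anchored post 44.8, 50.6 and 50. The no mold libraries all lay below unanchored middle, but no mold replicate 2 lay above the lowest library of each of the other 3 molded groups. Over all tested genes, 17.6% had no mold libraries wholly below unanchored middle. In order of group means, only unanchored middle over anchored post did not overlap its neighbour.

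DHCR7 went the other way. It read 50.6, 46.4 and 47.1 CPM in no mold tissue. In unanchored middle it read 40.2, 35.8 and 35.8, and in unanchored post 38.1, 36.3 and 34.8. In anchored middle it read 32.8, 29.5 and 34.6, and in anchored post 36.5, 27.9 and 38.1. The lowest no mold library thus lay above the highest of all 12 molded libraries, and anchored middle lay wholly below both unanchored groups while anchored post overlapped all 3 other molded groups.

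INSIG1, the endoplasmic reticulum protein that retains SCAP, was highest on average in no mold tissue, at 156, 164 and 176 CPM. It read 140, 125 and 149 in unanchored middle and 145, 156 and 165 in unanchored post. In anchored middle it read 149, 102 and 125, and in anchored post 149, 132 and 163. Both middle groups lay wholly below no mold tissue, while both post groups overlapped it. Over all tested genes, 15.7% lay wholly below no mold tissue in unanchored middle and 12.6% in anchored middle. About 18.3% of INSIG1 counts and 7.91% of DHCR7 counts lay in values shared between genes.

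The first comparison asked whether tissue from a mold differed from tissue made without one. Against no mold tissue, the mean of the 4 molded groups had lower DHCR7 (log2 fold change -0.45, SE 0.099, 1.36-fold lower, adjusted p = 0.0033, edgeR quasi-likelihood test with Benjamini-Hochberg adjustment over all tested genes). DHCR7 was the only gene of the 8 to pass, 1 lower and 7 not passing. Over all tested genes 16% passed, 8.04% higher and 7.91% lower, so 1 of 8 is near the background share. Complete separation of the no mold libraries above all molded libraries was found for 4.29% of tested genes. In bulk RNA, fewer cells of a type and less RNA per cell cannot be told apart.

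For the other 7 genes the molded mean did not pass. SC5D had the largest positive estimate, 0.29 (SE 0.127, 95% interval 0.03 to 0.55, adjusted p = 0.127). INSIG1 had an estimate of -0.22 (SE 0.0944, 95% interval -0.42 to -0.03, adjusted p = 0.113). SQLE, LSS and IDI1 had estimates of 0.15, 0.14 and 0.11 (adjusted p = 0.322, 0.522 and 0.543), with 95% intervals reaching 0.35, 0.40 and 0.33. FDFT1 and HMGCS1 had estimates of -0.07 and -0.05 (adjusted p = 0.597 and 0.706), with intervals of -0.24 to 0.09 and -0.21 to 0.10. The median over the 8 genes was 0.03 on the log2 scale, beside 0.00 over all tested genes, with 4 estimates above 0 and 4 below.

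The DHCR7 call in the molded mean was kept in all 15 fits that left out 1 library each, among them the fit without anchored middle replicate 2 (-0.43, adjusted p = 0.00288). It was lost without the 3 shallowest libraries, where the estimate was -0.39 (adjusted p = 0.164) and no mold tissue had 1 library left, whose spread was taken from the other groups. SC5D passed without no mold replicate 2 (0.51, adjusted p = 0.0366), and INSIG1 passed without anchored middle replicate 1 (-0.26, adjusted p = 0.0468). No mold replicate 2 was the deepest no mold library (4466562 counts, beside 2060781 and 2128257). Over all alternative settings and left-out libraries the SC5D estimate ran from 0.07 to 0.51.

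**Figure D2:**
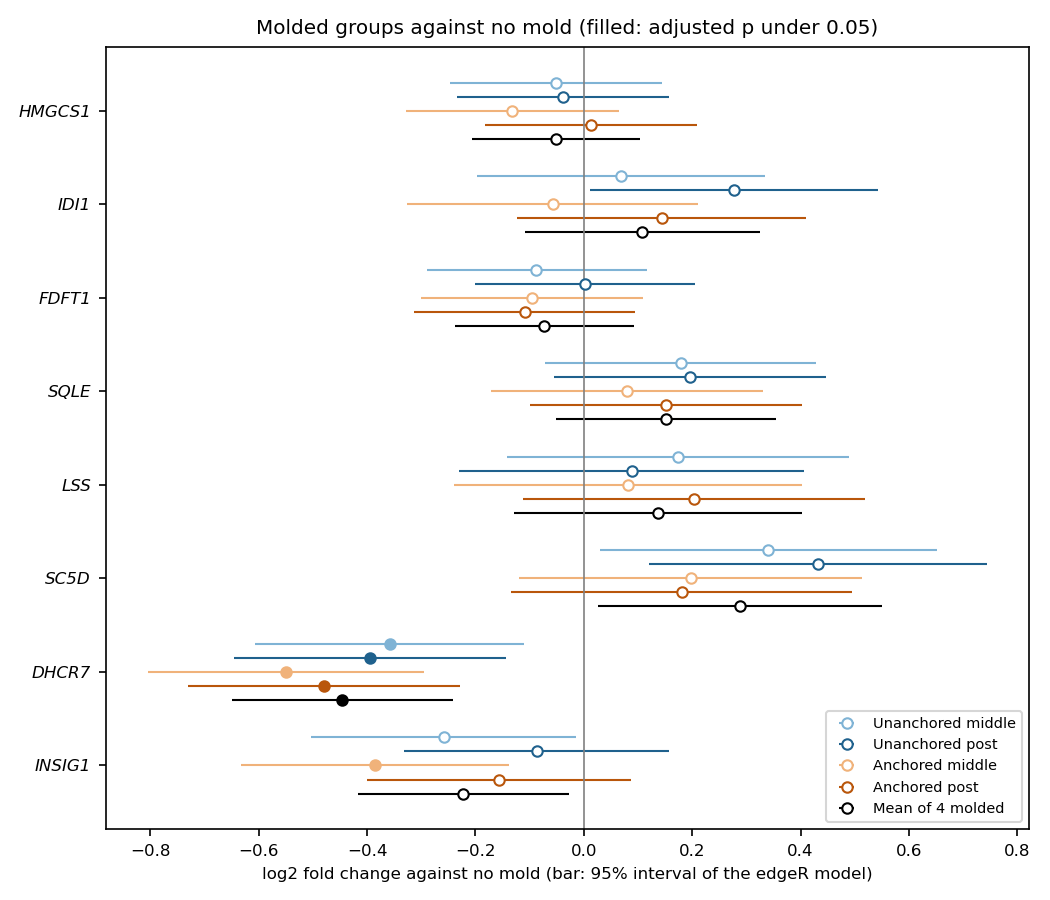
Log2 fold change against no mold tissue (horizontal axis) for each of the 8 genes in each molded group and in their mean. Points are edgeR estimates and bars 95% intervals; filled points have an adjusted p under 0.05, which holds for all 5 DHCR7 estimates and for INSIG1 in anchored middle.

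Each molded group was then set against the same 3 no mold libraries, so the 4 comparisons share their controls. DHCR7 was lower in each. Its log2 fold change was -0.36 in unanchored middle (SE 0.12, adjusted p = 0.0463) and -0.39 in unanchored post (SE 0.121, adjusted p = 0.0427). It was -0.55 in anchored middle (SE 0.123, adjusted p = 0.00441) and -0.48 in anchored post (SE 0.121, adjusted p = 0.0203). INSIG1 was lower in anchored middle as well (-0.39, SE 0.119, adjusted p = 0.033). In unanchored middle INSIG1 had an estimate of -0.26 (adjusted p = 0.148), in anchored post -0.16 (0.495) and in unanchored post -0.09 (0.711). SC5D did not pass in any group; its estimates were 0.34 for the middle and 0.43 for the post region of unanchored tissue (adjusted p = 0.134 and 0.0726), and 0.20 and 0.18 for those of anchored tissue (adjusted p = 0.439 and 0.552).

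Set against the background, 1 of 8 genes passed in unanchored middle where 14.8% of tested genes did (7.2% lower), and 1 of 8 in unanchored post where 9.02% did (4.09% lower). In anchored middle 2 of 8 passed, against 13.3% (6.2% lower), and in anchored post 1 of 8, against 5.56% (2.64% lower). The medians over the 8 genes were 0.01 and 0.05 for the middle and post regions of unanchored tissue, and -0.08 and 0.08 for those of anchored tissue. Over all tested genes the medians were 0.01, -0.01, 0.01 and -0.00. No mold libraries lay wholly above a molded group for 15.7%, 14.6%, 12.6% and 11.9% of tested genes in the same order, so the separation of DHCR7 within a single group is common among genes.

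The single-group calls of DHCR7 and INSIG1 differed in how far they rested on 1 library. DHCR7 in anchored middle kept its call in all 15 fits without 1 library. DHCR7 in anchored post lost it without no mold replicate 1 (adjusted p = 0.091), no mold replicate 3 (0.0673) or anchored post replicate 2 (0.0818). DHCR7 in unanchored post lost it without no mold replicate 1, 2 or 3 (adjusted p = 0.151, 0.0782 and 0.0975) and without unanchored post replicate 1, 2 or 3 (0.0831, 0.0743 and 0.14). It also missed the threshold there without unanchored middle replicate 2 (0.0552), anchored middle replicate 3 (0.051) or anchored post replicate 1 (0.0512).

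DHCR7 in unanchored middle kept its call in 3 of 15 such fits. Without no mold replicate 1, 2 or 3 its adjusted p was 0.139, 0.0849 and 0.0996, and without unanchored middle replicate 1, 2 or 3 it was 0.0521, 0.137 and 0.114. Without unanchored post replicate 1, 2 or 3 it was 0.0571, 0.0544 and 0.055, without anchored middle replicate 1 or 3 it was 0.0513 and 0.0552, and without anchored post replicate 1 it was 0.0549. INSIG1 in anchored middle lost its call without no mold replicate 1, 2 or 3 (adjusted p = 0.0545, 0.0745 and 0.137). It lost it also without anchored middle replicate 2 (-0.27, adjusted p = 0.113), the library that stood apart, or anchored middle replicate 3 (0.0956). SC5D passed in unanchored middle without no mold replicate 2 (adjusted p = 0.0384). In unanchored post SC5D passed without no mold replicate 2 (0.024), unanchored post replicate 2 (0.0482), anchored middle replicate 1 (0.0443) or anchored middle replicate 2 (0.036). Over all alternative settings and left-out libraries its estimate ran from 0.09 to 0.56 in unanchored middle and from 0.18 to 0.65 in unanchored post.

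The second comparison asked whether anchoring the mold mattered. None of the 8 genes passed in the middle region, in the post region or in the mean of both, where 0% of all tested genes passed as well. At an unadjusted p under 0.05 there were 0 of the 8 genes in each of the 3 tests, and 366, 454 and 648 of all tested genes in middle, post and mean. A DESeq2 Wald test on the same counts also passed 0 genes in each. For the mean of both regions the largest estimates were -0.20 for SC5D (SE 0.0968, adjusted p = 0.91), -0.14 for DHCR7 (SE 0.0809, adjusted p = 0.93) and -0.13 for IDI1 (SE 0.0875, adjusted p = 0.936). Over the 8 genes the 95% intervals of this mean lay between -0.40 and 0.21 on the log2 scale.

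In the middle region all 8 estimates were below 0, with a median of -0.11 beside 0.00 over all tested genes. That pattern rested on 1 library: without anchored middle replicate 2, 5 estimates were below 0 and 3 above, with a median of -0.01. In the post region 6 of 8 were below 0 (median -0.08). DHCR7 in the middle region and SC5D in the post region had anchored libraries wholly below unanchored ones, as did 3.79% and 4.33% of tested genes.

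The third comparison set the post region against the middle region. None of the 8 genes passed within unanchored tissue, within anchored tissue or in the mean of both, where 0.448%, 1.92% and 8.51% of tested genes passed. DESeq2 also called 0 of the 8 in each, and 0 of the 8 had an unadjusted p under 0.05 within unanchored or within anchored tissue. In the mean, INSIG1 had an estimate of 0.20 (SE 0.0815, adjusted p = 0.131) and IDI1 of 0.21 (SE 0.0875, adjusted p = 0.151), the only 2 of the 8 with an unadjusted p under 0.05. INSIG1 passed there without anchored middle replicate 1 (0.27, adjusted p = 0.0322). All 8 estimates were above 0 (median 0.04, beside -0.01 over all tested genes), but without anchored middle replicate 2 the signs were 4 and 4 and the median was 0.00. The 95% intervals of the 8 genes lay between -0.19 and 0.39.

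Whether the regional difference depended on anchoring was tested by the interaction of both factors. The 8 genes and all tested genes gave 0 calls (0%), with 0 of the 8 and 223 of all genes at an unadjusted p under 0.05, and DESeq2 gave 0 as well. The 95% intervals of the 8 interaction terms lay between -0.51 and 0.61.

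**Figure D3:**
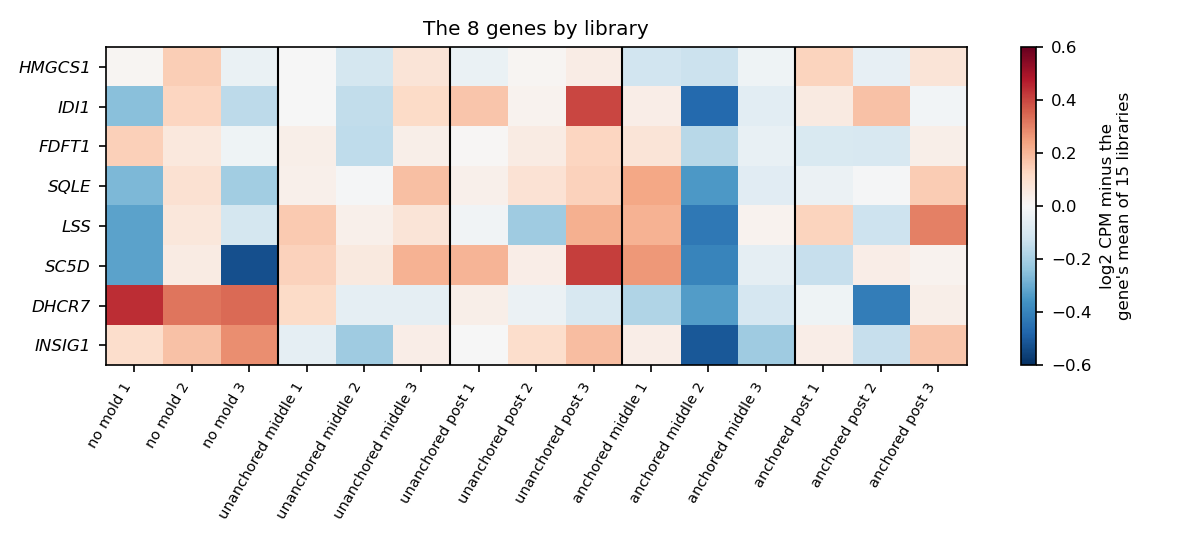
Colour gives each gene's log2 CPM minus its own mean over 15 libraries (rows: genes, columns: libraries, black lines between groups). Anchored middle replicate 2 is below the mean for all 8 genes, and DHCR7 is high in the 3 no mold libraries.

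Across libraries the genes moved partly together. For each library the 8 log2 values, each centred on its gene's mean, were averaged. Anchored middle replicate 2 was at -0.35, with 0 of 8 genes above their own mean, and all other libraries lay between -0.08 and 0.18. No mold replicate 2 had 8 of 8 genes above their mean (0.13), and unanchored post replicate 3 had 7 (0.18). The matching shares over all tested genes were not counted.

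Over the 28 pairs of genes, Pearson's r across the 15 libraries ran from -0.31 to 0.87 with a median of 0.43, and 25 pairs were positive. These are descriptions over libraries that share scaling and depth. Without anchored middle replicate 2 the median fell to 0.22 and 22 pairs were positive. SQLE, IDI1, LSS and SC5D formed the tightest set, from 0.63 for IDI1 with LSS to 0.87 for SQLE with SC5D, and from 0.42 to 0.84 without that library. The 3 shallowest libraries had the lowest levels of SQLE (185, 193 and 176 CPM), IDI1 (107, 114 and 92) and SC5D (39.5, 34.2 and 37.4). For LSS, no mold replicate 1 and anchored middle replicate 2 were lowest (33.4 and 30.9). The part of library depth in these correlations was not tested. DHCR7 had negative values with SC5D (-0.31), SQLE and IDI1, and its highest was 0.64 with INSIG1. Without anchored middle replicate 2, DHCR7 was at -0.58 with SC5D, -0.52 with SQLE and -0.52 with IDI1, and at 0.56 with INSIG1. When each library was taken as a deviation from its group mean, DHCR7 with SC5D was at 0.02, and the median over pairs was 0.52.

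Over the 15 libraries, the gene closest to the mean profile of the 8 was TLCD3A, with Pearson's r of 0.95, and 0.91 without anchored middle replicate 2. The other 9 of the 10 closest among 10391 genes ranked were ANKRA2, SLC30A1, IPO7, MBD2, AARS1, VPS33A, EFHD2, CPT1A and SMURF2, at 0.88 to 0.92. Without anchored middle replicate 2 those 9 were at 0.71 to 0.82, and 6 of them (MBD2, AARS1, VPS33A, EFHD2, CPT1A and SMURF2) were no longer among the 10 closest, so most of this list rests on that library. None of those 10 is one of the 8 genes or of the pathway lists below. Each of the 8 genes was compared with the mean of the other 7: SQLE was closest (0.75, rank 120) and DHCR7 farthest (0.09, rank 4423). Without anchored middle replicate 2, SQLE was at 0.60 and DHCR7 at -0.29 (rank 8717).

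The rest of the pathway was described with gene lists. Of 15 other enzymes of sterol synthesis, all tested, 3 fell in the molded mean, 12 did not pass and 0 rose, with a median of -0.22 on the log2 scale. MVD, which makes isopentenyl diphosphate, fell by 0.51 (adjusted p = 0.00691), from 23.1 ± 3.6 CPM in no mold tissue to group means of 13.9 to 16.8 CPM (SD, n = 3). HSD17B7, a ketosteroid reductase of the late pathway, fell by 0.34 (adjusted p = 0.0309). ACAT2, which makes acetoacetyl-CoA, fell by 0.23 (adjusted p = 0.0424), but 79.2% of its counts lay in values shared between genes. The share of 3 in 15 lower compares with 7.91% of all tested genes.

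All 15 estimates in that list were below 0, and 14 were with no filter on low counts, a setting that moved the median of all tested genes to 0.05. Without no mold replicate 1, 13 of 15 were below 0. MVD lost its call without no mold replicate 3 (adjusted p = 0.0844), and HSD17B7 without no mold replicate 2 (0.159) or 3 (0.158). ACAT2 kept its call only in the fits without anchored middle replicate 1 or 2 or anchored post replicate 2. In the other 12 fits without 1 library its adjusted p was 0.0508 to 0.245, highest without no mold replicate 2. Without the 3 shallowest libraries all 3 calls were lost, with MVD at -0.31 (adjusted p = 0.387), HSD17B7 at 0.193 and ACAT2 at 0.145. With no filter HSD17B7 (0.0885) and ACAT2 (0.25) were lost.

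**Figure D4:**
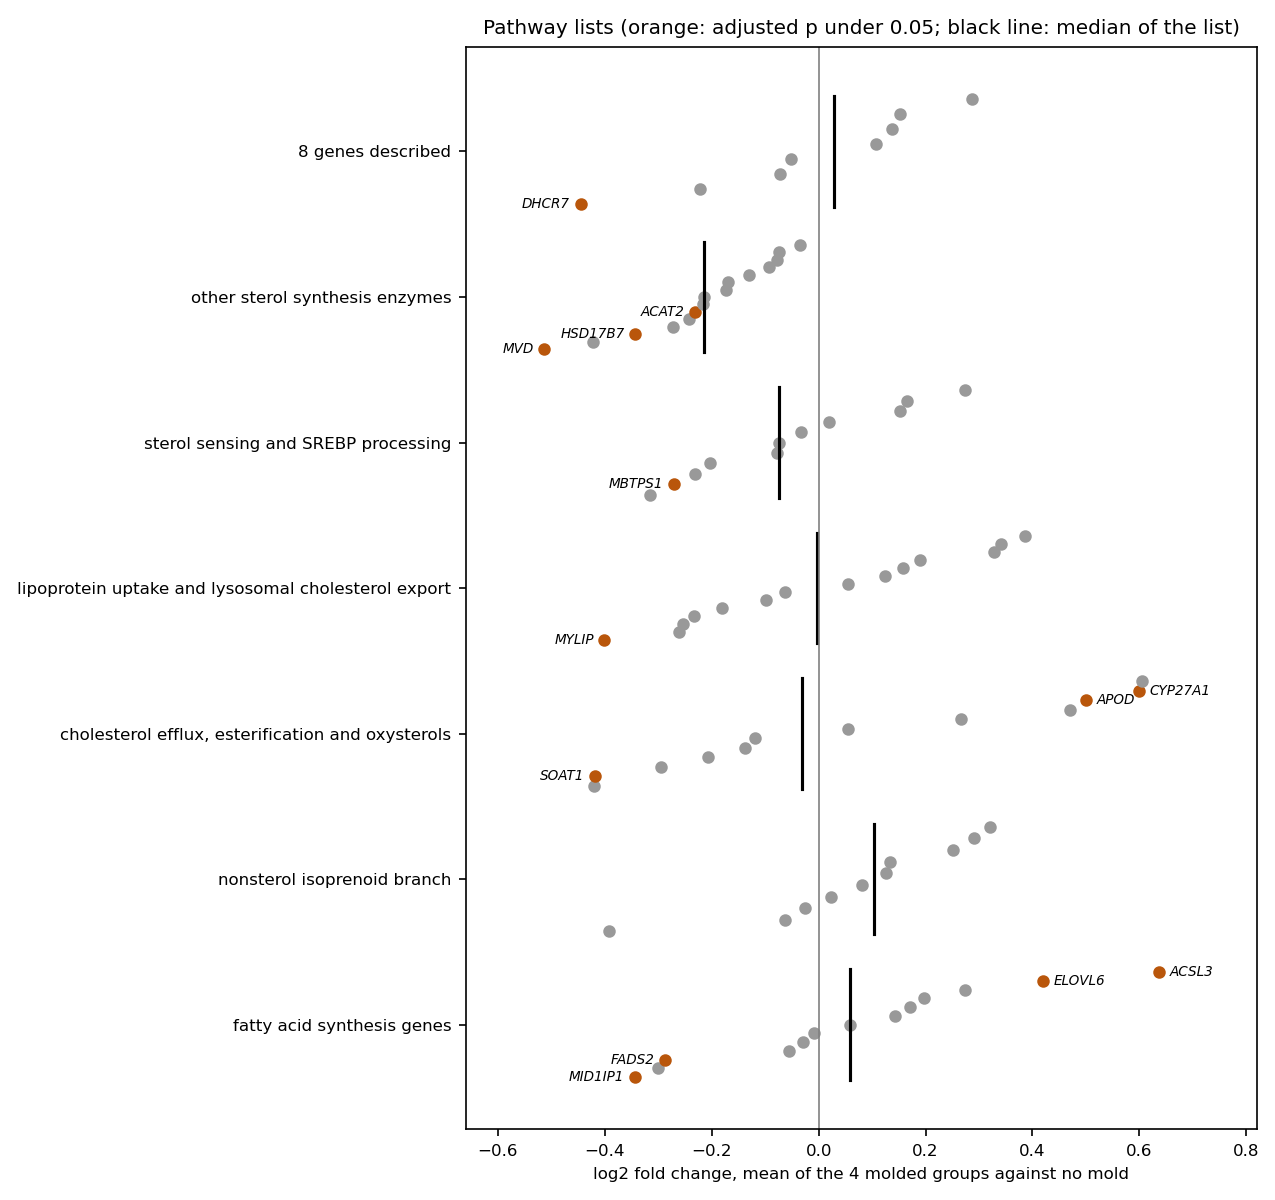
Log2 fold change of the molded mean against no mold tissue (horizontal axis) for each tested gene of the 8 genes and of 6 pathway lists (rows). Orange points have an adjusted p under 0.05 and are named, and black lines are list medians; the median of the other sterol synthesis enzymes is -0.22 and that of the 8 genes 0.03.

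In single groups, the same list had 3 genes lower in unanchored middle: EBP, the sterol isomerase (-0.34, adjusted p = 0.0264), ACAT2 (-0.30, 0.0409) and HSD17B7 (-0.38, 0.05 after rounding up from just under it). EBP lost this call without no mold replicate 2 (0.0674) or 3 (0.115) or unanchored middle replicate 1 (0.104) or 2 (0.056). ACAT2 kept it only without anchored middle replicate 1 or 2 or anchored post replicate 2, and in the other 12 fits its adjusted p was 0.0521 to 0.166, highest without no mold replicate 2. HSD17B7 kept it only without unanchored middle replicate 3, anchored middle replicate 2 or anchored post replicate 2, and in the other 12 fits its adjusted p was 0.0503 to 0.169, highest without no mold replicate 3. With the replicate number as a block HSD17B7 was at 0.0521. MVD alone was lower in unanchored post (-0.69, adjusted p = 0.00655), and reached 0.05 without no mold replicate 3. In anchored middle MVD (-0.53, adjusted p = 0.0244), HSD17B7 (-0.46, 0.0244), ACAT2 (-0.33, 0.0269) and EBP (-0.34, 0.0275) were lower. Of the 15 genes, 0 passed in anchored post. For comparison, 7.2% of all tested genes passed as lower in the middle of unanchored tissue and 4.09% in its post region. The matching shares for anchored tissue were 6.2% (middle) and 2.64% (post). Without no mold replicate 1, MVD and ACAT2 lost the call in anchored middle (0.0765 and 0.0745). Without no mold replicate 2, HSD17B7, ACAT2 and EBP lost it (0.097, 0.123 and 0.0708), and without no mold replicate 3, MVD, HSD17B7 and EBP (0.131, 0.104 and 0.123). Without anchored middle replicate 1, MVD, HSD17B7 and EBP lost it (0.0848, 0.0694 and 0.0963), without replicate 2 ACAT2 (0.0852), and without replicate 3 MVD, HSD17B7 and ACAT2 (0.108, 0.0957 and 0.071). All 8 of these single-group calls were lost without the 3 shallowest libraries (adjusted p = 0.0756 to 0.306). With no filter on low counts all but MVD in unanchored post were lost (0.0552 to 0.205). DESeq2 gave HSD17B7 in unanchored middle at 0.07, and with only the groups compared MVD, ACAT2 and EBP were lost in anchored middle (0.0698, 0.0832 and 0.0578).

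Of 11 tested genes of sterol sensing and SREBP processing, 1 fell in the molded mean and 0 rose (median -0.07), beside 7.91% of all tested genes lower. The gene that fell was MBTPS1, the protease that makes the first cut in SREBP (-0.27, adjusted p = 0.0364). MBTPS1 lost the call without no mold replicate 1, 2 or 3 (adjusted p = 0.0801, 0.14 and 0.153), unanchored middle replicate 2 (0.0597) or anchored post replicate 1 (0.0532), with no filter (0.152) and without the 3 shallowest libraries (0.276). SREBF2, which encodes SREBP2, had an estimate of -0.23 (adjusted p = 0.091) and SREBF1, which encodes the lipogenic SREBP1, one of 0.27 (adjusted p = 0.151). SREBF1 passed without anchored post replicate 2 (0.32, adjusted p = 0.0285) and with no filter (0.32, adjusted p = 0.021). SREBF2 read 124 to 138 CPM in no mold tissue and 90.5 to 134 in the molded libraries, which overlapped.

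Of 14 tested genes of lipoprotein uptake and lysosomal cholesterol export, 1 fell in the molded mean and 0 rose (median -0.00). The share of all tested genes that fell was 7.91%. MYLIP, a ubiquitin ligase that limits lipoprotein uptake, fell by 0.40 (adjusted p = 0.0276). MYLIP lost the call without no mold replicate 1 (0.188) or 3 (0.154) and with no filter (0.0756). Without the 3 shallowest libraries its estimate was -0.16 (adjusted p = 0.703).

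Of 12 tested genes of cholesterol efflux, esterification and oxysterols, 2 rose and 1 fell (median -0.03). Over all tested genes 8.04% rose and 7.91% fell in the molded mean. APOD, a secreted lipid-binding protein, rose by 0.50 (adjusted p = 0.00538), from 483 ± 62.4 CPM in no mold tissue to 825 ± 79.2 in unanchored middle and 813 ± 180 in anchored middle, with 576 ± 82.4 and 560 ± 60.4 in the unanchored and anchored post regions (SD, n = 3). CYP27A1, a sterol hydroxylase, rose by 0.60 (adjusted p = 0.0191). SOAT1, which esterifies cholesterol for storage, fell by 0.42 (adjusted p = 0.00324), from 80.8 ± 10.7 CPM in no mold tissue to group means of 56 to 64.8. APOD and SOAT1 lost their calls without no mold replicate 3 (adjusted p = 0.0518 and 0.0598), and CYP27A1 without no mold replicate 1, 2 or 3 (0.0679, 0.114 and 0.0546). Without the 3 shallowest libraries APOD kept its call (adjusted p = 0.0145), and CYP27A1 (0.155) and SOAT1 (0.0871) lost theirs.

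None of 10 tested genes of the nonsterol isoprenoid branch passed in the molded mean (median 0.10, 2 at an unadjusted p under 0.05). Of 13 tested genes of fatty acid synthesis, 2 rose and 2 fell (median 0.06), beside 8.04% and 7.91% of all tested genes. ACSL3, an acyl-CoA synthetase of lipid droplets, rose by 0.64 (adjusted p = 3.47e-05), from 114 ± 15.3 CPM in no mold tissue to group means of 170 to 189 CPM, with 57.1% of its counts in values shared between genes. ELOVL6, a fatty acid elongase, rose by 0.42 (adjusted p = 0.00472). MID1IP1, which promotes fatty acid synthesis, fell by 0.34 (adjusted p = 0.0145) and FADS2, a desaturase, fell by 0.29 (adjusted p = 0.0237). ACSL3 and ELOVL6 kept their calls in all 15 fits without 1 library, and ACSL3 was higher in each of the 4 molded groups (adjusted p = 0.000113, 0.000261, 0.00112 and 0.00232). MID1IP1 lost its call without no mold replicate 1 (0.123) or 3 (0.0734), and FADS2 without no mold replicate 1, 2 or 3 (0.0984, 0.0897 and 0.0795) and with no filter (0.104). Without the 3 shallowest libraries ACSL3 kept its call in the molded mean (adjusted p = 0.0326) but not in anchored middle (0.0669) or anchored post (0.21). ELOVL6 (0.309), MID1IP1 (0.445) and FADS2 (0.27) lost theirs, with ELOVL6 at 0.29 and MID1IP1 at -0.19 on the log2 scale.

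Between regions, in the mean of both molds, EBP rose by 0.25 in post over middle (adjusted p = 0.0241) and NPC2, which moves cholesterol out of lysosomes, rose by 0.36 (0.00625). LRP1, a large endocytic receptor, fell by 0.38 (adjusted p = 0.013) and APOD fell by 0.53 (0.00192). MID1IP1 rose by 0.26 (adjusted p = 0.0463). Over all tested genes 8.51% passed in this comparison. NPC2, LRP1 and APOD kept their calls in all 15 fits without 1 library. Values shared between genes held 26.7% of NPC2 counts, 43.8% of LRP1 counts and 37.8% of APOD counts. Of the 9 fibrochondrocyte markers, 6 fell in post against middle, 0 rose and 3 did not pass (median -0.66). EBP lost its call without unanchored middle replicate 1 (0.0704) or 2 (0.0533), unanchored post replicate 2 (0.0504) or 3 (0.075), or anchored post replicate 2 (0.0569) or 3 (0.0505). MID1IP1 kept its call in 4 of 15, without no mold replicate 1 or 2, anchored middle replicate 1 or anchored post replicate 2, and was at 0.0533 to 0.138 in the others, highest without unanchored post replicate 3. EBP also lost its call with no filter (0.0565), and MID1IP1 with only the groups compared (0.0517) or without the 3 shallowest libraries (0.0737). None of the list genes passed between anchored and unanchored tissue.

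Markers of other cell types were measured beside these results. Of 8 adipocyte markers 6 had an entry and 3 were tested, with a summed level of 287 to 323 CPM in no mold tissue and 312 to 617 in the molded groups. FABP4 alone held 28696 of the 31438 counts in this sum. FABP4 rose by 0.58 (adjusted p = 0.00623) and LPL fell by 0.70 (adjusted p = 0.00661) in the molded mean. Of 9 liver-secreted protein genes 5 were tested, with sums of 127 to 249 CPM in no mold tissue and 68 to 173 in the molded groups. In the molded mean 3 of them fell and 1 rose, the latter by 1.17. APOA1 fell by 1.11 (adjusted p = 1.23e-05), but 81.1% of its counts lay in values shared between genes. Of 6 macrophage and leukocyte markers 2 were tested, with sums of 7.09 to 11.6 and 6.56 to 12.2 CPM. The 5 endothelial markers had 91 counts in all libraries together and none was tested. Of 5 muscle markers 2 were tested, with sums of 13.8 to 27.3 CPM in no mold tissue and 7.23 to 18.1 in the molded groups, and 1 of those 2 fell. Of 4 Schwann cell markers 1 was tested, S100B, a gene that cartilage cells also express. No marker with an entry was at 0 in all libraries, and the part of these markers in the DHCR7 and pathway results was not tested.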

How the data were processed

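Expected counts and CPM per gene were deposited by the authors for 15 libraries. The submitters' processing notes list MultiQC 1.33, Subread 2.1.1 (featureCounts), SAMtools 1.21 and STAR 2.7. The sources used here do not give the genome build, the annotation or how molecular identifiers were used. The deposited CPM is the expected count scaled to the column total, so only the expected counts were analysed. Of nonzero expected counts, 13.5% to 16.3% were not whole (tolerance 1e-06), so counts were rounded.

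The table has 38093 entries, 38001 genes and 92 spike-in sequences, and the latter were left out. Genes passed edgeR's filter by expression (minimum count 10, minimum total 15), which left 11834. One edgeR 4.0.16 quasi-likelihood model (R 4.3.3, limma 3.58.1) over the 5 groups used TMM scaling, and p-values were adjusted over all tested genes in each of 12 comparisons with a threshold of 0.05. No replicate block was used. Alternatives were DESeq2 1.42.0, its size factors in edgeR, no filter on low counts, only the groups compared, a replicate block, leaving out the 3 shallowest libraries, and leaving out each library. In a test on simulated counts, the molded mean recovered 49% of 98 genes changed by 0.5 on the log2 scale and 82.1% of 95 genes changed by 1 (11694 genes). Post against middle recovered 77.8% and 98%, of 99 genes each (11717 genes). False calls numbered 6 and 3. Far fewer genes were changed there than passed in these data (1888 and 1007), and each gene's spread was set by its level alone. These rates therefore need not hold for the data.

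The 8 genes and the lists were chosen with earlier results of these data known. All 8 are named, with SREBF2 and SREBF1, every list gene past the threshold in a comparison described for that list (at most 4 per list), and the 10 genes of most similar profile. Other genes of that rule are not reported here. List genes without an entry were not analysed here. Marker genes are named as examples, chosen after their values were seen.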

Additional observations from a re-analysis of the deposited data

How the results depend on the processing

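Among the 8 genes, no call changed direction under any alternative, and 94 of 2007 estimates changed sign while not past the threshold, none larger than 0.17 on the log2 scale in size. Without the 3 shallowest libraries, 0 of the 8 genes were called in the molded mean and in each of the 4 molded groups, in place of 1, 1, 1, 2 and 1. That setting leaves no mold tissue with 1 library, assumed to vary like the other groups, and called 335, 421, 170, 411 and 82 of all tested genes in place of 1888, 1747, 1068, 1575 and 658. With no filter on low counts, 2 of the 8 genes were called in the molded mean, DHCR7 and SC5D (0.33, adjusted p = 0.0361), and among the 11834 genes the split was 1207 higher and 805 lower in place of 952 and 936. With no filter, single-group calls also moved: DHCR7 was lost in unanchored middle (adjusted p = 0.157) and unanchored post (0.119), and SC5D was gained there (0.0458 and 0.0104). DESeq2 called 0 of the 8 in unanchored middle (DHCR7 adjusted p = 0.0587). With only the groups compared, 2 were called in unanchored post (SC5D, adjusted p = 0.0366) and 1 in anchored middle (INSIG1 lost, 0.0691). Leaving out single libraries gave 1 to 2 calls in the molded mean, 0 to 1 in unanchored middle, 0 to 2 in unanchored post, 1 to 2 in anchored middle, 0 to 1 in anchored post and 0 to 1 in the mean of post against middle. The cause of these moves was not tested beyond the fewer libraries or other genes that each setting uses.

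Counts over all tested genes moved by more than 1.5 times for other settings too. Post against middle in unanchored tissue called 53, with 133 by DESeq2, 272 with no filter, 192 with only the groups compared and 148 without the shallowest libraries. In anchored tissue it called 227, with 479 with no filter and 105 with only the groups compared. No filter gave 28, 21 and 66 calls between anchored and unanchored tissue (middle, post, mean) and 3 for the interaction, in place of 0, and none was one of the 8 genes. The mean also gave 1 call with the replicate block and 1 without anchored middle replicate 3. Leaving out no mold replicate 3 lowered the molded mean to 856, unanchored middle to 790, unanchored post to 496, anchored middle to 768 and anchored post to 251. Leaving out unanchored middle replicate 2 lowered post against middle to 3 in unanchored tissue and to 465 in the mean, and leaving out anchored post replicate 3 lowered it to 62 in anchored tissue. Anchored middle against no mold moved by less than 1.5 times with only the groups compared, to 1068 from 1575.

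With the replicate number as a block, 1, 1, 1, 2 and 1 of the 8 genes were called in the molded mean and the 4 molded groups, the same counts as without it. Of the list calls printed, HSD17B7 in unanchored middle was lost, and the molded mean called 1877 of all genes. The numbers were not taken to pair the libraries, since the labels do not say that they do. Deviations from group means of same-numbered libraries correlated from -0.17 to 0.26 (30 pairs, median 0.02, 6 over 0.1). For different numbers they ran from -0.23 to 0.20 (60 pairs, median -0.01, 8 over 0.1). These values cannot decide whether some numbers mark a shared tissue. Of 15 libraries, 9 correlated best with their own number among the 3 numbers. Deviations within a group depend on each other, so these 15 outcomes are not independent and cannot decide it either. Depth limits the smaller genes most, since LSS and SC5D rested on as few as 66 and 69 counts in a library.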

Other observations

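SC5D and DHCR7, the neighbouring enzymes near the end of the pathway, were also set against each other within each library, a measure chosen after their values were seen and given without a test. The ratio of SC5D to DHCR7 in CPM was 0.78, 1.1 and 0.73 in no mold tissue. It was 1.35, 1.44 and 1.6 in unanchored middle, and 1.49, 1.4 and 1.89 in unanchored post. It was 1.8, 1.27 and 1.37 in anchored middle, and 1.23, 1.81 and 1.31 in anchored post. All 12 molded libraries lay above the 3 no mold libraries, and the molded groups overlapped each other. DHCR7 alone already separated the same libraries, so the separation of the ratio is not a second result. How often other pairs of genes separate these libraries was not counted. Because the values are not divided by transcript length, only the order of libraries can be read from this ratio, not which gene had more transcripts.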
